A study of Mus musculus with 12 samples.

Results

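The Notch pathway was examined through 9 genes in mouse thymic tissue: the receptor genes Notch1, Notch2 and Notch3 and the direct target genes Dtx1, Hes1, Hes5, Hey1, Heyl and Nrarp. They were picked out by gene symbol, and each was read from the 1 transcript row that carries it. The 9 genes stood among 24478 symbols in the tables, and all 9 were among the 15606 genes that passed the filter on low counts. Notch receptors are membrane proteins that are cut when a ligand on a neighbouring cell pulls on them. The freed intracellular part joins the DNA-binding protein RBPJ and switches on target genes, several of which encode repressors of the HES and HEY families or inhibitors of the pathway itself. In the thymus, Notch1 signals driven by the ligand Dll4 commit progenitors to the T cell lineage, and in the spleen Notch2 signals form marginal zone B cells.

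Poly(A) RNA was sequenced from 12 libraries of thymic tissue, 3 in each of 4 groups. Splenomegaly masses were thymic masses of MYCS62A animals with an enlarged spleen, whose labels name T and B lymphocytes carrying both endogenous MYC and ectopic MYCS62A. S62A lymphomas and T58A lymphomas were spontaneous thymic lymphomas, labelled as T lymphocytes whose MYC was the ectopic mutant alone. Controls were thymic tissue whose labels name T lymphocytes and endogenous MYC alone. In both MYC mutants alanine replaces a residue whose phosphorylation governs turnover of the protein. No source used here gives the promoter that drives the ectopic MYC, the strain or age of the animals, or any pooling of tissue. Whether each library is a different animal is not stated either, so a p-value compares a difference only with the variation among these 12 libraries, some of which may be technical.

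Depth ran from 9577373 to 22437969 reads assigned to genes in a library. Every library title carries a letter of unstated meaning: all splenomegaly masses and S62A lymphomas carry I, all T58A lymphomas H, controls 1 and 2 G and control 3 H. S62A lymphomas and splenomegaly masses therefore cannot be told apart from the letter when set against controls, while the comparison of splenomegaly masses with S62A lymphomas lies within it.

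The labelled cells were checked against marker lists, each summed in CPM, which scales reads to library size. In the list of 11 pan T cell genes the sums ran from 856 to 992 CPM in splenomegaly masses, 2754 to 4493 in S62A lymphomas, 3327 to 4728 in T58A lymphomas and 9718 to 9866 in controls. The list of 10 double-positive thymocyte genes, which marks the main stage of the thymic cortex, summed to between 342 and 386 CPM in splenomegaly masses, 2880 and 5739 in S62A lymphomas, 4448 and 6115 in T58A lymphomas and 12490 and 13950 in controls. A list of 10 thymic epithelium genes, labelled cortical, summed to between 94.0 and 109.9 CPM in splenomegaly masses and 30.3 and 53.9 in S62A lymphomas. It summed to between 130.2 and 199.3 CPM in T58A lymphomas and 2805 and 3033 in controls. In T58A lymphomas its genes Psmb11 and Ccl25 averaged 0.074 and 3.15 CPM, against 183 and 668 in controls. Krt5 and Epcam, of the same list, averaged 83.0 and 21.45 CPM in T58A lymphomas. In splenomegaly masses Epcam averaged 42.5 CPM, and Psmb11 and Ccl25 0.14 and 1.99. The sums outside controls are therefore not read as cortical epithelium alone. The B cell list of 10 genes reached 2257 to 2923 CPM in splenomegaly masses, against 154 to 209 in S62A lymphomas, 207 to 623 in T58A lymphomas and 183 to 189 in controls. Of the 10, Cd37 alone averaged 143 CPM in S62A lymphomas, 188 in T58A lymphomas and 103.5 in controls. At an adjusted p under 0.05, 4 of the 10 were lower in S62A lymphomas than in controls (22.2% of all genes). In the same comparison 1, Cd37, was higher (21.9%), and 3 or 4 were called with single libraries left out. The similar sums of S62A lymphomas and controls are therefore not read as equal B cell content. No gene of these lists was at 0 reads throughout a group. Fewer cells of a type and less RNA per cell cannot be told apart in such tissue.

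**Figure D1:**
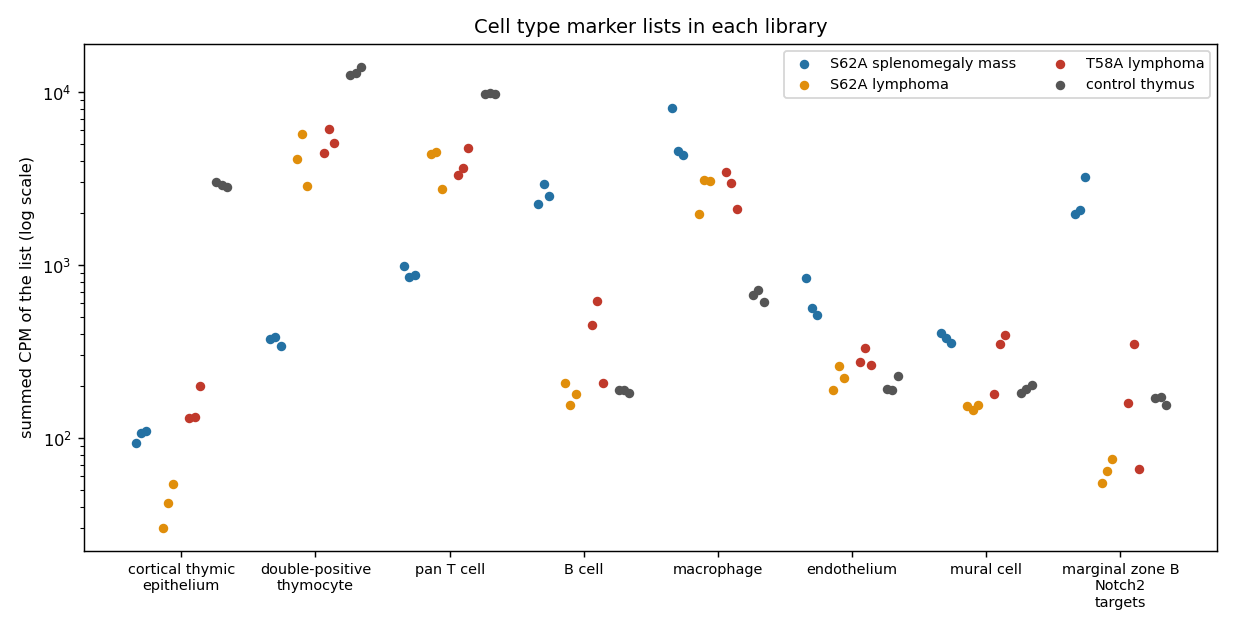
Summed CPM (log scale) of marker lists and of a list of marginal zone B cell genes (labelled Notch2 targets), with 1 point for each library and the groups from left to right as splenomegaly masses, S62A lymphomas, T58A lymphomas and controls. B cell genes stood highest in splenomegaly masses (2257 to 2923 CPM), and epithelial and thymocyte genes stood highest in controls.

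The 3 receptor genes did not move together. Notch1 and Notch3 were lower than in controls in all 3 mutant groups, and Notch2 was higher in splenomegaly masses. Notch1, the receptor that commits progenitors to the T lineage (NM_008714, chromosome 2 from 26313422 to 26359342, minus strand, mm9), had 61.8, 77.3 and 81.1 CPM in splenomegaly masses, 10.2, 11.1 and 6.0 CPM in S62A lymphomas, 17.7, 20.2 and 17.0 CPM in T58A lymphomas, and 317, 305 and 225 CPM in controls. The 4 groups were separate at every step, with S62A lymphomas lowest and controls highest. The log2 fold change against controls was −1.94 ± 0.22 in splenomegaly masses (SE, adjusted p = 4.43e-05, edgeR quasi-likelihood test with Benjamini-Hochberg adjustment, as in all that follow), −4.95 ± 0.25 in S62A lymphomas (adjusted p = 9.85e-07) and −3.94 ± 0.24 in T58A lymphomas (adjusted p = 2.88e-06). The T cell marker sums given above were lower in the same groups, with 11 of 11 pan T cell genes lower in splenomegaly masses (26.3% of all genes), 7 in S62A lymphomas (22.2%) and 7 in T58A lymphomas (17.4%), and their part in the Notch1 result was not tested.

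Notch3, a receptor active in immature thymocytes and in the mural cells of arteries (NM_008716, chromosome 17 from 32257838 to 32303797, minus strand), had 16.1, 19.6 and 11.9 CPM in splenomegaly masses, 7.19, 6.61 and 5.54 CPM in S62A lymphomas, 11.7, 24.9 and 22.4 CPM in T58A lymphomas and 96.2, 88.3 and 79.1 CPM in controls. Every library of the mutant groups lay below every control, and the libraries of splenomegaly masses and T58A lymphomas overlapped. Against controls the log2 fold changes were −2.47 ± 0.28 in splenomegaly masses (adjusted p = 4.75e-05), −3.77 ± 0.30 in S62A lymphomas (adjusted p = 8.52e-06) and −2.16 ± 0.28 in T58A lymphomas (adjusted p = 0.000217). The 8 mural cell markers summed to 181, 350 and 393 CPM in T58A lymphomas 1, 2 and 3, where Notch3 was also lowest in lymphoma 1. They summed to 352 to 405 CPM in splenomegaly masses, 144 to 156 in S62A lymphomas and 181 to 203 in controls, and their part was not tested.

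Notch2, the receptor of marginal zone B cells and of many non-lymphoid cells (NM_010928, chromosome 3 from 97817461 to 97954290, plus strand), ran the other way. It had 157, 117 and 87.3 CPM in splenomegaly masses, 111, 68.3 and 57.9 CPM in S62A lymphomas, 94.6, 74.6 and 76.8 CPM in T58A lymphomas, and 50.2, 51.4 and 51.1 CPM in controls. All 9 mutant libraries lay above all 3 controls, and the mutant groups overlapped each other. Notch2 rose in splenomegaly masses (1.24 ± 0.25, adjusted p = 0.00202). In S62A lymphomas the difference from controls was 0.63 ± 0.25 (adjusted p = 0.0585) and in T58A lymphomas 0.69 ± 0.25 (adjusted p = 0.0503), and neither passed the threshold of 0.05. The S62A difference passed without S62A lymphoma 3 (0.81, adjusted p = 0.0234). The T58A difference passed in the DESeq2 Wald test (0.66, adjusted p = 0.038) and in a fit of only the groups compared (0.70, adjusted p = 0.00381). Macrophages express Notch2 as well, and the sum of 10 macrophage markers was 4337 to 8135 CPM in splenomegaly masses, 1959 to 3083 in S62A lymphomas, 2099 to 3458 in T58A lymphomas and 612 to 716 in controls. Of the 10, Itgam alone averaged 79.4 CPM in splenomegaly masses, 948 in S62A lymphomas, 579 in T58A lymphomas and 11.9 in controls. In splenomegaly masses against S62A lymphomas 8 of the 10 were higher (25.6% of all genes) and 1, Itgam, was lower (28.6%). The part of macrophages was not tested.

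The mix of receptor transcripts was set out on the length-scaled FPKM values, because levels of different genes can be compared only per length. Notch1 made up 37.4 ± 9.46% of the summed FPKM of Notch1, Notch2 and Notch3 in splenomegaly masses (SD, n = 3 in each group), 10.6 ± 2.86% in S62A lymphomas, 15.9 ± 1.24% in T58A lymphomas and 64.6 ± 2.94% in controls. The share of Notch2 was 52.9 ± 9.38% in splenomegaly masses, 80.0 ± 3.93% in S62A lymphomas, 63.3 ± 8.18% in T58A lymphomas and 10.6 ± 1.62% in controls. Notch2 was the largest share in all S62A and T58A lymphomas and in splenomegaly masses 1 and 2, and Notch1 was the largest in splenomegaly mass 3 (46.8%, against 44.8% for Notch2) and in all controls. Summed FPKM of the 3 receptors came to 23.7 ± 2.94 in splenomegaly masses, 10.4 ± 3.18 in S62A lymphomas, 14.4 ± 0.217 in T58A lymphomas and 55.4 ± 8.09 in controls.

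**Figure D2:**
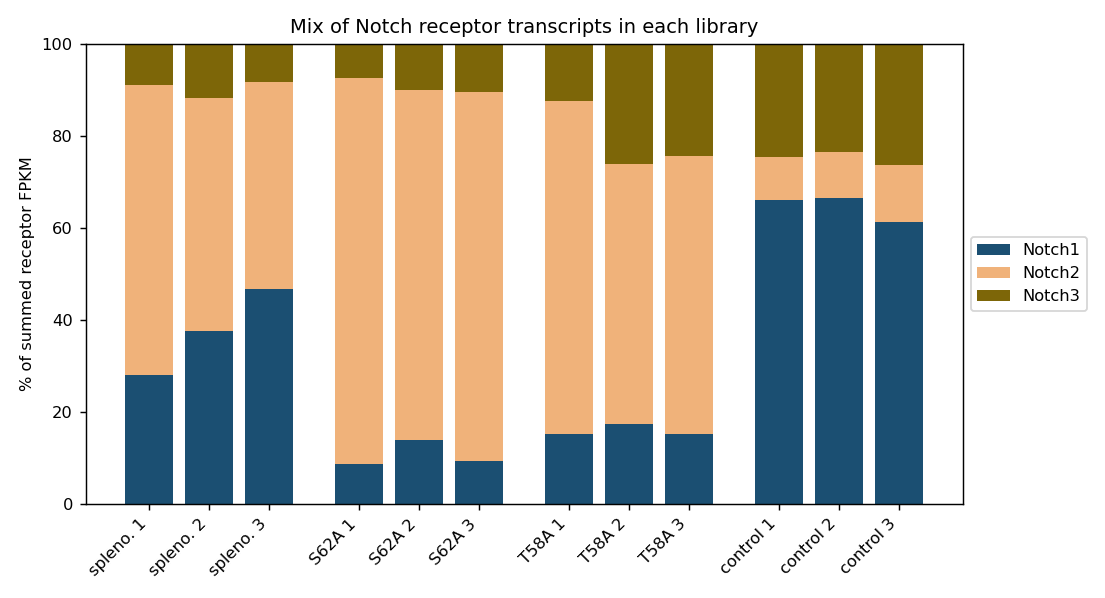
Share of the summed FPKM of Notch1, Notch2 and Notch3 (percent, vertical axis) in each library, with splenomegaly masses (spleno.) at the left, then S62A lymphomas, T58A lymphomas and controls. Notch2 takes between 44.8% and 83.9% of the bar in the 9 mutant libraries and between 9.33% and 12.4% in the 3 controls.

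The direct targets were described next, and 3 of them are shown with the 250 bases before their start, because Hes5 is a classical RBPJ target, Dtx1 spans the widest range among the 9 genes here and Nrarp departs from the other targets. The windows come from RefSeq on build GRCm38.p6, whose table matched 6 of the 9 genes (Notch1, Notch2, Notch3, Dtx1, Hes5 and Nrarp). The 4 motifs searched on both strands, from 250 bases before to 50 after the start, were GTGGGAA, the high-affinity RBPJ form, and TGGGAA, which lies inside it, with CACGTG (an E box) and CACNAG (an N box). Which proteins bind either box in these promoters was not tested. Of 32851 promoters of that length, 6.38% held GTGGGAA, 25.6% TGGGAA, 7.15% CACGTG and 42.5% CACNAG. Capitals mark GTGGGAA or its reverse complement in Hes5 (chr4:154960673-154960922, plus strand), CACNAG as its reverse complement in Dtx1 (chr5:120711670-120711919, minus strand) and CACGTG in Nrarp (chr2:25180508-25180757, plus strand). 
Hes5: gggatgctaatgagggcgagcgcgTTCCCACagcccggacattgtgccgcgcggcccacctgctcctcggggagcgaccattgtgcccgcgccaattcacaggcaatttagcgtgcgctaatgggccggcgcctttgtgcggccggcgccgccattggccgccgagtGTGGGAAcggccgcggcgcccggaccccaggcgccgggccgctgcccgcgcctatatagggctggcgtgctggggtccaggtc 
Dtx1: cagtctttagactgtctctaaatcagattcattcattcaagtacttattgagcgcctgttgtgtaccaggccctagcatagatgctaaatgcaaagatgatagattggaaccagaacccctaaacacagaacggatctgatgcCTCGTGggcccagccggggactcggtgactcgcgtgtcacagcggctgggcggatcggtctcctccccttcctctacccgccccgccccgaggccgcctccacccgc 
Nrarp: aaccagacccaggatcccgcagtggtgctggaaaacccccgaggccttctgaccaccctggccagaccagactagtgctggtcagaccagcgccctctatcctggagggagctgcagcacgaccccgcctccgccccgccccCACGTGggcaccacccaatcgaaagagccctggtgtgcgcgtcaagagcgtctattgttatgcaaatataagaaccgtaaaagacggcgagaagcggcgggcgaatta 
Hes5 held GTGGGAA at 2 places, with first bases at −226 (minus strand) and −83 (plus strand) from the start, and none of the other 5 promoters held it. Nrarp was the only 1 of the 6 with CACGTG, at −108. CACNAG was found in Notch1, Notch2, Notch3, Dtx1 (at −107) and Nrarp. A match describes the letters in the window and is not a measured binding site.

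Dtx1, a ubiquitin ligase of the Deltex family that acts on Notch in the cytoplasm (NM_008052, chromosome 5 from 121130273 to 121161678, minus strand, mm9), had the widest spread. It had 27.9, 28.6 and 33.2 CPM in splenomegaly masses, 0.255, 0.287 and 0.133 CPM in S62A lymphomas, 4.33, 8.63 and 0.805 CPM in T58A lymphomas, and 49.7, 52.0 and 23.4 CPM in controls. S62A lymphomas lay below all other libraries, T58A lymphomas below all splenomegaly masses and controls, and splenomegaly masses overlapped with controls through control 3. Dtx1 fell in S62A lymphomas (−7.49 ± 0.84 against controls, adjusted p = 6.49e-05) and in T58A lymphomas (−3.18 ± 0.62, adjusted p = 0.00266), and the splenomegaly masses gave −0.48 ± 0.57 (adjusted p = 0.51). The T58A libraries differed 10.7-fold among themselves, and without T58A lymphoma 2 the fall came to −4.03 (adjusted p = 0.00125). The B cell marker sums of T58A lymphomas 1, 2 and 3 were 449, 623 and 207 CPM, the same order as Dtx1 in these libraries, and their part in the Dtx1 result was not tested.

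Hes1 and Hes5 encode basic helix-loop-helix repressors. Hes1 (NM_008235, chromosome 16 from 30065443 to 30067882, plus strand) had 15.4, 8.10 and 11.5 CPM in splenomegaly masses, 2.48, 2.23 and 4.40 CPM in S62A lymphomas, 4.39, 6.87 and 8.28 CPM in T58A lymphomas and 18.9, 17.0 and 12.0 CPM in controls. Both lymphoma groups lay below all controls and overlapped each other by a small margin, and splenomegaly masses overlapped with controls. Hes1 fell in S62A lymphomas (−2.39 ± 0.39, adjusted p = 0.000651) and in T58A lymphomas (−1.29 ± 0.37, adjusted p = 0.0182), with −0.45 ± 0.36 in splenomegaly masses (adjusted p = 0.323). The T58A call was lost without control 1 (adjusted p = 0.0693), control 2 (0.0573) or T58A lymphoma 1 (0.0614).

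Hes5 (NM_010419, chromosome 4 from 154335032 to 154336480, plus strand) was low everywhere, and its values rest on few reads: 14, 17 and 23 in splenomegaly masses, 0, 1 and 0 in S62A lymphomas, 0, 8 and 0 in T58A lymphomas, and 36, 26 and 38 in controls. These came to 0.743, 1.79 and 1.61 CPM in splenomegaly masses and 1.86, 1.43 and 1.65 CPM in controls, while the single read of S62A lymphoma 2 and the 8 reads of T58A lymphoma 2 came to 0.0718 and 0.426 CPM. A library at 0 allows up to 0.173 CPM in T58A lymphomas 1 and 3, 0.191 in S62A lymphoma 1 and 0.200 in S62A lymphoma 3, taking 3 reads as the limit. Splenomegaly masses overlapped with controls, and no lymphoma library reached either. 
Hes5 was lower in S62A lymphomas than in controls (adjusted p = 0.00613), where pooled reads gave a ratio of 73.6 of controls over lymphomas, and counting error (95%) bounds it between 12.9 and 2937. It was lower in T58A lymphomas (log2 fold change −3.43 ± 1.10, adjusted p = 0.0285), and splenomegaly masses gave −0.26 ± 0.93 against controls (adjusted p = 0.831). The T58A call was lost without control 1 (adjusted p = 0.073), 2 (0.0621) or 3 (0.0637) and without T58A lymphoma 1 (0.0655) or 3 (0.0654). Without T58A lymphoma 2 no T58A read was left (adjusted p = 0.00226), and without S62A lymphoma 2 no S62A read was left (adjusted p = 0.0146 against controls).

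Hey1 and Heyl encode related repressors, best known from heart and vessel development. Hey1 (NM_010423, chromosome 3 from 8663359 to 8667038, minus strand) had 8.33, 5.47 and 4.70 CPM in splenomegaly masses, 3.31, 1.80 and 3.80 CPM in S62A lymphomas, 4.73, 10.3 and 13.1 CPM in T58A lymphomas, and 24.9, 25.6 and 19.1 CPM in controls. Controls lay above all other libraries and S62A lymphomas below all others. Hey1 fell in splenomegaly masses (−1.91 ± 0.41, adjusted p = 0.00284), S62A lymphomas (−2.96 ± 0.43, adjusted p = 0.000342) and T58A lymphomas (−1.31 ± 0.40, adjusted p = 0.0251). The T58A call was lost without control 1 (adjusted p = 0.0729), control 2 (0.0776) or T58A lymphoma 1 (0.0654).

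Heyl (NM_013905, chromosome 4 from 122910799 to 122927113, plus strand) had 3.29, 2.42 and 0.631 CPM in splenomegaly masses, 1.21, 1.37 and 2.33 CPM in S62A lymphomas, 2.66, 6.82 and 5.64 CPM in T58A lymphomas and 6.45, 6.01 and 7.02 CPM in controls. Splenomegaly masses and S62A lymphomas lay below all controls, and T58A lymphoma 2 lay within the controls. Heyl fell in S62A lymphomas (−1.98 ± 0.57, adjusted p = 0.0156) and in splenomegaly masses (−1.61 ± 0.56, adjusted p = 0.0329), with −0.37 ± 0.54 in T58A lymphomas (adjusted p = 0.624). The splenomegaly call was lost without control 1 (adjusted p = 0.0713), 2 (0.064) or 3 (0.0768), and without splenomegaly mass 2 (0.0643) or 3 (0.0818).

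Nrarp, a small ankyrin repeat protein that binds the Notch transcription complex and dampens it (NM_025980, chromosome 2 from 25036278 to 25038852, plus strand), passed the test in no comparison with controls. It had 13.5, 10.9 and 8.84 CPM in splenomegaly masses, 6.87, 15.6 and 71.95 CPM in S62A lymphomas, 9.58, 22.8 and 5.81 CPM in T58A lymphomas, and 18.6, 19.9 and 12.0 CPM in controls. All groups overlapped, and S62A lymphoma 3 alone stood far above the rest, 10.5-fold over S62A lymphoma 1. The differences from controls were −0.60 ± 0.72 in splenomegaly masses (adjusted p = 0.518), 0.90 ± 0.72 in S62A lymphomas (adjusted p = 0.331) and −0.40 ± 0.72 in T58A lymphomas (adjusted p = 0.69). Without S62A lymphoma 3 the S62A difference was −0.58.

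**Figure D3:**
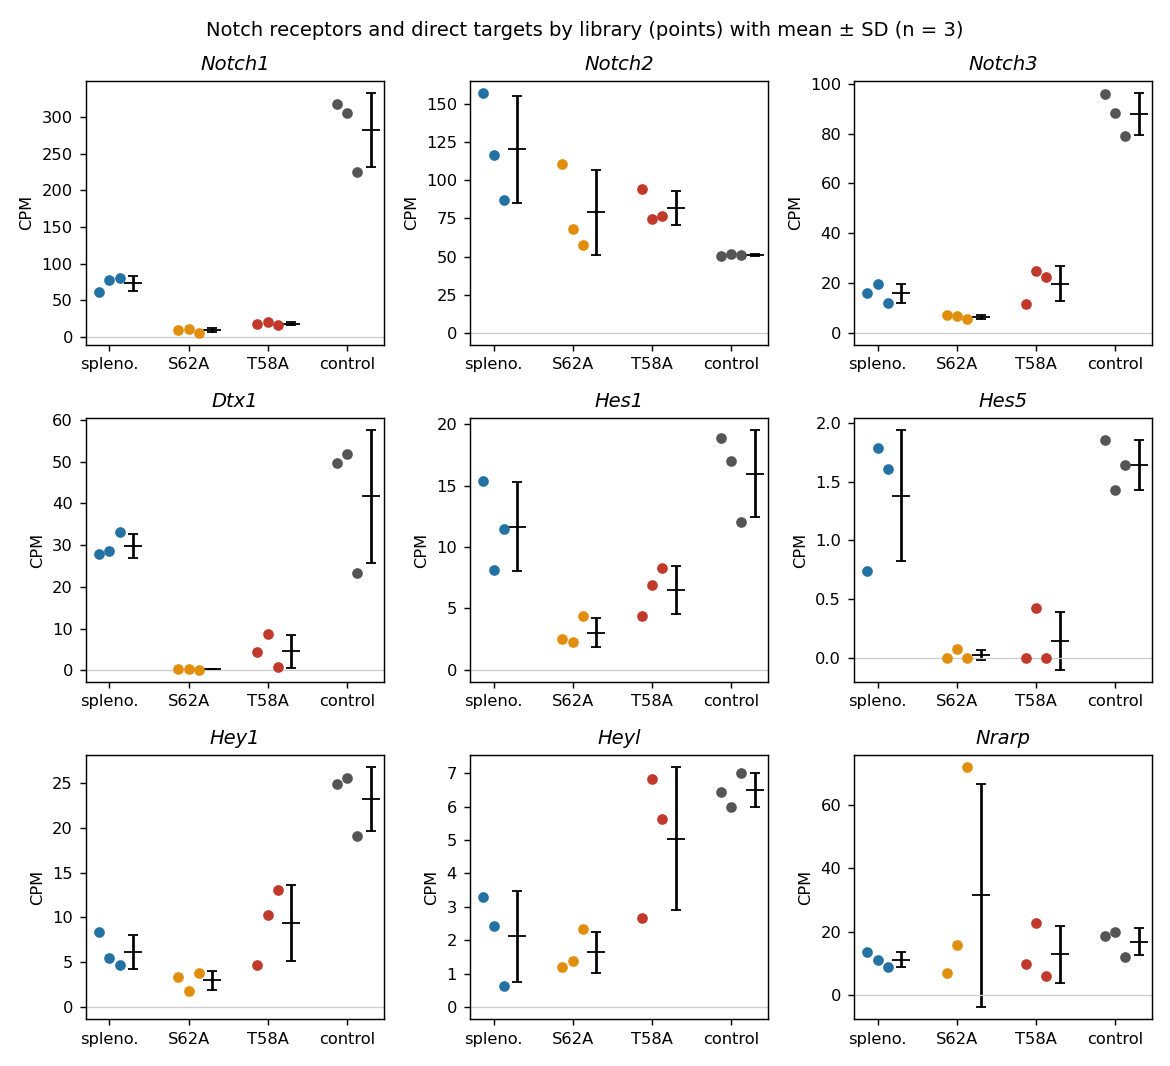
CPM of the 9 genes (vertical axis, separate scale for each gene) in splenomegaly masses (spleno.), S62A lymphomas, T58A lymphomas and controls, with 1 point for each library and a bar for mean ± SD (n = 3). Notch1 stood between 6.0 and 81.1 CPM in the mutant libraries and between 225 and 317 CPM in controls, and Nrarp of S62A lymphoma 3 reached 71.95 CPM.

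Per length, the order of the 9 genes differed between groups. Notch2 stood first in splenomegaly masses (12.7 ± 3.59 FPKM), followed by Dtx1 (8.70 ± 0.802), Notch1 (8.69 ± 1.30) and Hes1 (8.68 ± 2.55), 3 genes whose means lay within their spread. In S62A lymphomas Nrarp (12.2 ± 13.7) and Notch2 (8.36 ± 2.89) came before Hes1 (2.29 ± 0.893). Nrarp stood first there through S62A lymphoma 3 alone (27.9 FPKM), with 2.64 and 6.09 FPKM in S62A lymphomas 1 and 2. In T58A lymphomas Notch2 (9.12 ± 1.11) came before Nrarp (5.18 ± 3.64), Hes1 (5.16 ± 1.62) and Hey1 (4.79 ± 2.22). In controls Notch1 (36.0 ± 6.69) came before Notch3 (13.7 ± 1.44), Dtx1 (13.1 ± 5.07), Hes1 (12.9 ± 2.95) and Hey1 (12.1 ± 1.96), and Notch2 was the seventh at 5.77 ± 0.0832 FPKM.

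The counts for the 9 genes were then read against all genes tested. In splenomegaly masses against controls 4 of 9 were lower (Notch1, Notch3, Hey1 and Heyl), against 26.3% of all genes, and 1 of 9 was higher (Notch2), against 22.9%. The libraries did not overlap in the same 5 genes, 4 below controls (38.5% of all genes) and 1 above (32.0%). The median log2 fold change of the 9 was −0.60, and that of all genes −0.08. In S62A lymphomas 7 of 9 were lower, against 22.2% of all genes, and none was higher, against 21.9%, with a median of −2.96 and 0.0 for all genes. No S62A library overlapped a control in those 7 (32.3% of all genes lay wholly below) or in Notch2 (28.0% wholly above). In T58A lymphomas 6 of 9 were lower, against 17.4%, and none was higher, against 18.8%, with a median of −1.31 and 0.01 for all genes. No T58A library overlapped a control in those 6 (31.2% of all genes lay wholly below) or in Notch2 (28.8% wholly above). The T58A count was 3 without control 1, control 2 or T58A lymphoma 1. 
The 3 comparisons share the same controls, so their values are not independent of one another. With controls 1 and 2 left out, T58A lymphomas were set against control 3, the lone control of title letter H, which gives no spread of its own. That fit still held the splenomegaly masses and S62A lymphomas, so its spread did not come from letter H alone. No call is therefore made within letter H, and only the differences are given. They were −3.62 for Notch1, −2.01 for Notch3, −2.35 for Dtx1, −0.89 for Hes1, −3.44 for Hes5 and −1.03 for Hey1.

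The lymphoma groups were also tested against each other, which sets the S62A mutant against the T58A mutant. Notch1 was lower in S62A than in T58A lymphomas (−1.01 ± 0.22, adjusted p = 0.0371), as were Notch3 (−1.61 ± 0.28, adjusted p = 0.0214) and Dtx1 (−4.31 ± 0.80, adjusted p = 0.0239). These were 3 of 9 genes, against 2.29% of all genes lower, and none was higher, against 0.859%. Hey1 (−1.65 ± 0.41, adjusted p = 0.0544) and Heyl (−1.62 ± 0.57, adjusted p = 0.124) missed the threshold, although no S62A library overlapped a T58A library. Of the 9 genes 5 did not overlap and were lower in S62A lymphomas, against 11.0% of all genes. 
Notch2 gave −0.05 (adjusted p = 0.921), and Hes1 (−1.10 ± 0.38, adjusted p = 0.118) and Nrarp (1.30 ± 0.73, adjusted p = 0.306) did not pass. Hes5 had 1 read in S62A and 8 in T58A lymphomas, a pooled ratio of 6.68 for T58A over S62A that counting error (95%) bounds between 0.895 and 296. 
The calls between lymphomas depended on the fit and on single libraries. None of the 9 genes and none of the 15606 passed in edgeR when only these groups were fitted, where 6 of the 9 and 2194 of all genes had an unadjusted p under 0.05. None of the 9 passed without T58A lymphoma 2, with Notch1 at an adjusted p of 0.116, Notch3 at 0.0564 and Dtx1 at −3.47 (0.0531). Notch1 was also lost without S62A lymphoma 1 (0.0549) or 3 (0.0538), and Dtx1 without S62A lymphoma 1 (0.0514), 2 (0.0521) or 3 (0.0545). Hey1 passed without T58A lymphoma 1 (adjusted p = 0.0214). All S62A lymphomas carry title letter I and all T58A lymphomas H, so letter and mutant cannot be told apart. Of the 10 B cell markers 4 were lower in S62A than in T58A lymphomas, a count that ran from 1 to 9 and moved by over 1.5 times without any 1 library but T58A lymphoma 1. Of the 8 mural cell markers 3 were lower, and 0 or 1 passed without T58A lymphoma 2 or any 1 S62A lymphoma. The part of either in these differences was not tested.

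Within title letter I, splenomegaly masses were set against S62A lymphomas. Here 6 of 9 genes were higher, against 25.6% of all genes, and none was lower, against 28.6%, with a median of 1.29 and −0.07 for all genes. Dtx1 rose by 7.01 ± 0.83 (adjusted p = 5.42e-05) and Notch1 by 3.01 ± 0.23 (adjusted p = 4.63e-06). Hes1 rose by 1.94 ± 0.38 (adjusted p = 0.00139), Notch3 by 1.29 ± 0.28 (adjusted p = 0.00243) and Hey1 by 1.06 ± 0.41 (adjusted p = 0.048). Hes5, with 54 reads in splenomegaly masses and 1 in S62A lymphomas, was higher (adjusted p = 0.0059), and the pooled ratio was 56.6, which counting error (95%) bounds between 9.73 and 2275. Without S62A lymphoma 2, whose single read is the only 1 of its group, the adjusted p was 0.0129. In all 6 the lowest splenomegaly library lay above the highest S62A lymphoma, which held for 27.9% of all genes. 
Notch2 (0.61 ± 0.25, adjusted p = 0.0565), Heyl (0.37 ± 0.57, adjusted p = 0.598) and Nrarp (−1.5 ± 0.73, adjusted p = 0.104) did not pass. Leaving out S62A lymphoma 1 or 2 ended the Hey1 call (adjusted p = 0.0721 and 0.145), as did leaving out splenomegaly mass 1 or 2 (0.151 and 0.0666). Notch2 passed without S62A lymphoma 1 (0.93, adjusted p = 0.00556) or splenomegaly mass 3 (0.85, adjusted p = 0.0158), and Nrarp without S62A lymphoma 1 (−1.98, adjusted p = 0.0247). Notch2 also passed in the DESeq2 Wald test (adjusted p = 0.0223), with DESeq2 size factors (0.0357) and with no filter (0.0472). Hey1 did not pass with library size only (adjusted p = 0.0506), with only these groups fitted (0.0868) or in the 3 limma fits (0.0531 to 0.113). Markers of other cells moved in the same comparison: 10 of 10 B cell and 10 of 10 endothelial genes were higher and 9 of 10 double-positive thymocyte genes lower in splenomegaly masses. Their part in the rises was not tested.

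**Figure D4:**
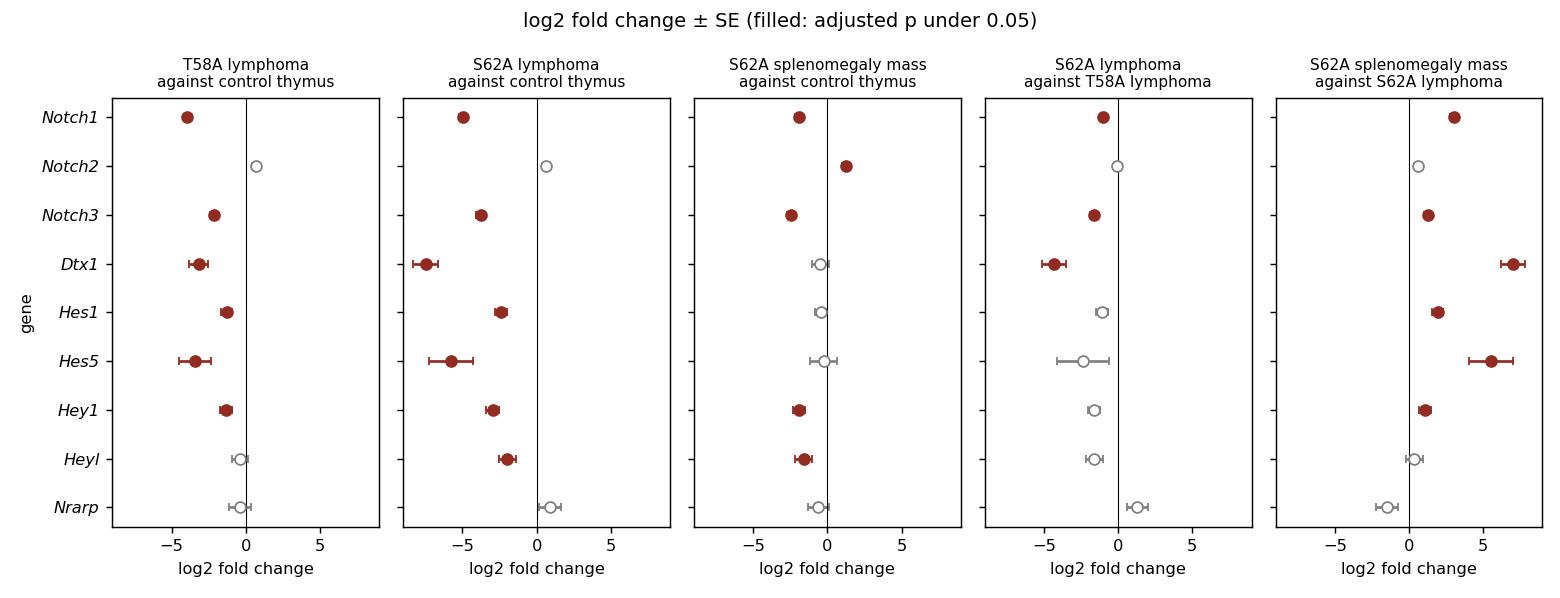
Log2 fold change ± SE of the 9 genes (horizontal axis) in the 5 comparisons, with filled points for an adjusted p under 0.05 and open points for the others. Notch1 lies at −1.94, −4.95 and −3.94 in splenomegaly masses, S62A lymphomas and T58A lymphomas against controls, whereas Dtx1 lies at −7.49 in S62A lymphomas and at −0.48 in splenomegaly masses.

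The ligands, which are presented by neighbouring cells, were measured in the same tissue. Dll4, the ligand by which thymic epithelium starts T cell commitment, had 23.0, 23.7 and 21.5 CPM in splenomegaly masses, 3.18, 3.16 and 3.27 CPM in S62A lymphomas, 5.37, 9.43 and 1.90 CPM in T58A lymphomas, and 23.2, 24.1 and 15.8 CPM in controls. Splenomegaly masses stood within the controls, and no lymphoma library reached either. Dll4 fell in S62A lymphomas (−2.71 ± 0.45, adjusted p = 0.000828) and in T58A lymphomas (−1.92 ± 0.44, adjusted p = 0.0062), the T58A difference being −2.55 without T58A lymphoma 2. Against control 3 alone, the lone control of title letter H, the T58A difference was −1.5, for which no call is made. Endothelium expresses Dll4 as well, and the sum of 10 endothelial markers was 511 to 843 CPM in splenomegaly masses, 189 to 262 in S62A lymphomas, 263 to 333 in T58A lymphomas and 190 to 229 in controls. Epithelial sums are given above, and the part of either cell type was not tested. 
Jag2, a ligand of the Jagged family, had 7.32, 4.31 and 6.60 CPM in splenomegaly masses, 2.80, 2.73 and 2.47 CPM in S62A lymphomas, 3.58, 4.79 and 7.71 CPM in T58A lymphomas, and 26.1, 23.6 and 25.5 CPM in controls. It was lower than in controls in all 3 groups, with log2 fold changes of −2.04 ± 0.31 in splenomegaly masses (adjusted p = 0.000355), −3.23 ± 0.33 in S62A lymphomas (adjusted p = 3.97e-05) and −2.22 ± 0.31 in T58A lymphomas (adjusted p = 0.000393). Dll1, the ligand that acts on Notch2 in the spleen, fell in S62A lymphomas (1.71 CPM, against 5.65 in controls, −1.72 ± 0.47, adjusted p = 0.0123), and the fall came to −2.44 without S62A lymphoma 1. Jag1 and Dll3 passed in no comparison with controls in the fit over all 12 libraries. When only the groups compared were fitted, Jag1 passed in S62A lymphomas (−0.79, adjusted p = 0.0496) and Dll3 in splenomegaly masses (1.97, adjusted p = 0.0173). 
Splenomegaly masses stood above S62A lymphomas in Dll4 (2.82 ± 0.46, adjusted p = 0.000413), Dll1 (2.17 ± 0.48, adjusted p = 0.00269, and 2.89 without S62A lymphoma 1) and Jag2 (1.19 ± 0.32, adjusted p = 0.00792). None of the 5 ligands passed between S62A and T58A lymphomas in edgeR, where 0.859% of all genes were higher and 2.29% lower. Of the 5, 3 had an unadjusted p under 0.05 there. The DESeq2 Wald test called 2 (Jag1 and Jag2, both lower in S62A), beside 1754 of the 15606 genes, 617 higher and 1137 lower. Single ligands passed in edgeR without T58A lymphoma 1 (Jag1, adjusted p = 0.0416, and Jag2, 0.0461), T58A lymphoma 3 (Dll4, 0.0478) or S62A lymphoma 1 (Dll1, 0.0429).

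Genes that act on the receptors or with RBPJ were counted by list, beside the shares of all genes called against controls: 22.9% higher and 26.3% lower in splenomegaly masses, 21.9% and 22.2% in S62A lymphomas, and 18.8% and 17.4% in T58A lymphomas. Among the 5 genes that glycosylate the receptors, 2 were higher and 1 lower in splenomegaly masses than in controls, 2 were lower in S62A lymphomas and 1 was lower in T58A lymphomas. Rfng, a Fringe sugar transferase, fell in all 3 groups, with log2 fold changes of −0.96 ± 0.12 in splenomegaly masses, −1.12 ± 0.12 in S62A lymphomas and −1.13 ± 0.12 in T58A lymphomas (adjusted p = 8.17e-05, 4.47e-05 and 6.13e-05 in that order). Lfng, another Fringe gene, was higher in splenomegaly masses by 1.37 ± 0.38 (adjusted p = 0.0119), a call lost without splenomegaly mass 1 (1.02, adjusted p = 0.0516), which left 1 gene called in this list. 
Of the 10 genes of receptor cleavage, 6 were higher in splenomegaly masses and none was lower, with Psen2, a catalytic subunit of gamma-secretase, at 2.44 ± 0.36 (adjusted p = 0.000282). In S62A lymphomas 2 were higher and 1 lower, and in T58A lymphomas 1 was higher and 1 lower, shares below those of all genes. The fallen gene was Furin, the protease that first cuts the receptor in the Golgi, in both lymphoma groups (−1.31 ± 0.15 in S62A, adjusted p = 8.07e-05, and −0.87 ± 0.15 in T58A, adjusted p = 0.00124). The medians of this list were 0.58, 0.12 and 0.20 in splenomegaly masses, S62A and T58A lymphomas, where those of all genes were −0.08, 0.0 and 0.01. In the lymphomas the counts called ran from 1 to 3 in each group, and moved by over 1.5 times without any 1 control and without S62A lymphoma 1 or 2, or T58A lymphoma 1 or 2.

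The shares of all genes called, higher and lower, were 22.9% and 26.3% in splenomegaly masses, 21.9% and 22.2% in S62A lymphomas, and 18.8% and 17.4% in T58A lymphomas. Of the 8 genes of the RBPJ activator complex, 1 was higher and 2 were lower in splenomegaly masses, 1 higher and 2 lower in S62A lymphomas, and 1 higher and 3 lower in T58A lymphomas. Maml2, a Mastermind coactivator that bridges the Notch fragment to histone acetyltransferases, fell in S62A lymphomas (−2.26 ± 0.23, adjusted p = 4.15e-05) and in T58A lymphomas (−1.66 ± 0.23, adjusted p = 0.000325). Of the 12 corepressor genes 7 were lower in splenomegaly masses, with Hdac2, a histone deacetylase, at −1.20 ± 0.11 (adjusted p = 1.52e-05). In S62A lymphomas 3 were higher and 1 lower, and in T58A lymphomas 1 was higher and 4 were lower. Tle2, a Groucho family corepressor, fell in all 3 groups, with log2 fold changes of −2.05 ± 0.37, −2.13 ± 0.37 and −1.88 ± 0.37 in splenomegaly masses, S62A and T58A lymphomas (adjusted p = 0.001, 0.00105 and 0.00257 in that order). Only 2 or 3 corepressor genes were called in T58A lymphomas without any 1 control or without T58A lymphoma 2 or 3, and 2 in S62A lymphomas without control 3. 
Of the 13 turnover genes, which ubiquitinate, sort or degrade receptors and ligands, 4 were higher and 3 lower in splenomegaly masses, 4 higher and 3 lower in S62A lymphomas, and 1 higher and 3 lower in T58A lymphomas. The counts fell as low as 4 in S62A lymphomas, where each control moved them by over 1.5 times, and as low as 2 in T58A lymphomas, where controls 1 and 2 and T58A lymphoma 3 did. Dtx3l, a relative of Dtx1, was higher in splenomegaly masses (0.82 ± 0.19, adjusted p = 0.00513) and lower in S62A lymphomas (−1.74 ± 0.20, adjusted p = 8.02e-05) and T58A lymphomas (−1.47 ± 0.20, adjusted p = 0.000302).

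T lineage targets of Notch and further lists were set beside the 9 genes. Of 12 T lineage targets, 1 was higher and 7 were lower in splenomegaly masses than in controls, where 22.9% of all genes were higher and 26.3% lower, and the median was −2.72, against −0.08 for all genes. In S62A lymphomas 2 were higher and 6 lower (21.9% and 22.2% of all genes), with a median of −1.08, against 0.0 for all genes. In T58A lymphomas 1 was higher and 5 were lower (18.8% and 17.4% of all genes), with a median of −1.03, against 0.01 for all genes. The higher T58A gene, and 1 of the 2 in S62A lymphomas, was Myc, the gene that sets the groups apart by design. Its log2 fold change was 0.79 ± 0.13 in T58A lymphomas (adjusted p = 0.000876) and 1.06 ± 0.13 in S62A lymphomas (adjusted p = 0.000109). These Myc rises cannot be told apart from the ectopic MYC and are no measure of Notch signalling. Ptcra, which pairs with the newly made beta chain in immature thymocytes, had 2 reads in all splenomegaly masses, 4 in S62A lymphomas and 0 in T58A lymphomas, against 3465 in controls (57.6 CPM). Tcf7, a factor that opens the T cell programme, fell to 153 CPM in splenomegaly masses, against 4131 CPM in controls (−4.75 ± 0.20, adjusted p = 1.55e-07). Gata3, another T lineage factor, rose in S62A lymphomas (244 CPM, against 104 in controls, 1.24 ± 0.28, adjusted p = 0.00433). 
Against the same shares, 5 genes of marginal zone B cells, labelled Notch2 targets, were counted. Of these 3 were higher and 1 was lower in splenomegaly masses, and none was higher and 3 were lower in S62A lymphomas. In T58A lymphomas 1 was higher and 1 lower, and 1 to 3 were called without any 1 control or T58A lymphoma 1. The list summed to 1972 to 3237 CPM in splenomegaly masses. Mzb1 alone averaged 2141 CPM there, against 11.4 in controls (7.55 ± 1.33, adjusted p = 0.000849). Whether these genes answered to Notch2 in this tissue was not tested. S1pr1, a receptor that holds B cells in the marginal zone, rose in splenomegaly masses (138.5 CPM, against 39.8 in controls, 1.80 ± 0.27, adjusted p = 0.00032) and fell in S62A lymphomas (12.2 CPM, −1.71 ± 0.28, adjusted p = 0.000665). Cd1d1, a lipid-presenting molecule of these cells, fell in splenomegaly masses (19.3 CPM, against 72.6 in controls, −1.91 ± 0.26, adjusted p = 0.000171). All 10 B cell and all 10 endothelial markers were also higher in splenomegaly masses than in controls, and their part in the S1pr1 and Mzb1 rises was not tested. Of 5 further Hes and Hey genes, Hes2 and Hes3 were not tested, and of the other 3 (Hes6, Hes7 and Hey2) 1 was lower in splenomegaly masses and 1 in S62A lymphomas, the S62A call being lost without control 2 or 3 or any 1 S62A lymphoma. In T58A lymphomas the log2 fold changes were 0.06 for Hes6, −0.53 for Hes7 and 0.13 for Hey2 (adjusted p = 0.866, 0.798 and 0.938 in that order). Hes6, which antagonises Hes1, fell in splenomegaly masses (60.3 CPM, against 157 in controls, −1.38 ± 0.23, adjusted p = 0.00057).

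**Figure D5:**
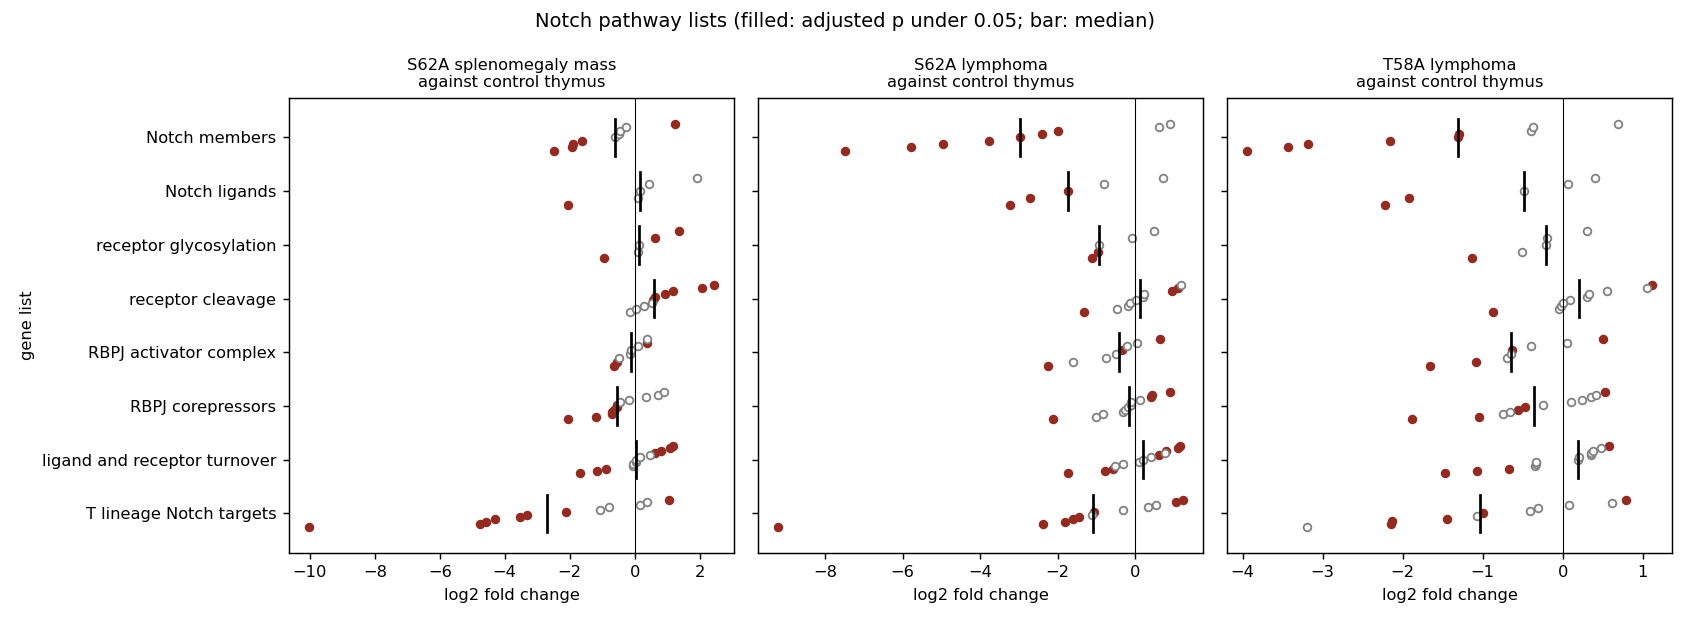
Log2 fold change (horizontal axis, separate scale in each panel) of every gene tested in 8 lists, for splenomegaly masses, S62A lymphomas and T58A lymphomas against controls, with filled points for an adjusted p under 0.05 and a bar at the median of the list. Ptcra, at 0 reads in T58A lymphomas, is counted in the median and not drawn there. The median of the 9 Notch genes lies at −0.60 in splenomegaly masses, −2.96 in S62A lymphomas and −1.31 in T58A lymphomas.

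Genes with the most similar pattern over the 12 libraries were listed by the root mean square difference of log2 CPM after centring each gene on its mean. Notch1, whose own spread was 1.92, had Fam84b (0.44), Ikzf2 (0.44) and Rhbdl3 (0.48) nearest to it. For Notch2, with a spread of 0.51, the nearest were Unc119 (0.16), Bre (0.19) and Tfe3 (0.20). For Notch3, with a spread of 1.38, they were Plekha7 (0.28), Nectin1 (0.30) and Micall2 (0.34). Nectin1 (0.37) also stood near Hey1, whose own spread was 1.15, with Mtss1l (0.32) and Efs (0.39). Ikzf2, which encodes the lymphocyte zinc finger protein Helios, stood near Hes5 (0.48), whose own spread was 1.74, with Mast4 (0.42) and Grm6 (0.45). 
The nearest genes to Dtx1, whose own spread was 2.87, were Pacsin1 (0.56), Ly6d (0.77) and Isg20 (0.84). The nearest genes to Hes1, with a spread of 0.98, were Arpin (0.27), Spryd7 (0.28) and Laptm4b (0.28). For Heyl, with a spread of 1.03, they were Prr15 (0.38), Frk (0.43) and Mdk (0.50). For Nrarp, with a spread of only 0.91, they were Rundc3a (0.46), Foxd2 (0.52) and Maneal (0.52). The measure weighs the groups and single libraries together, and it has no test.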

How the data were processed

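Poly(A) RNA of 12 libraries of mouse thymic tissue was sequenced with a directional kit, per the labels' protocols. The authors deposited raw read counts and length-scaled FPKM values for every RefSeq transcript. The submitters' processing notes list Bowtie 1.0.0, bcl2fastq 2.20.0.422, DESeq2 and build mm9; the method of counting, with its strand setting and handling of multiply mapped reads, was not given in the sources used here. Coordinates follow the deposited tables, with 1 added to each start on the assumption that they count from 0. Per symbol the transcript row with most reads was used.

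Genes were kept by filterByExpr with a minimum count of 10, which left 15606. Counts were scaled by TMM and fitted over all 12 libraries with the quasi-likelihood test of edgeR 4.0.16 in R 4.3.3, with group as the only term, for 5 comparisons. CPM are reads over the TMM-scaled library. P-values were adjusted over all genes tested, with a threshold of 0.05. The script was tested on simulated counts. DESeq2 1.42.0, and limma 3.58.1 on log2(FPKM + 1) or log2(FPKM + 0.1), served as alternatives, with other scalings, no filter, single libraries left out and title letter H only. Floors and counting intervals (95%) cover counting error only.

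The 9 genes and all lists were chosen with earlier results of these data known. All 9 genes and the ligands are described; of each other list and comparison at most the 2 risen and 2 fallen genes with the smallest adjusted p could be named. Per gene, the 3 genes of nearest pattern were named, leaving out predicted genes.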

Additional observations from a re-analysis of the deposited data

Results flagged for a closer look

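The difference between the lymphoma groups, tested directly in edgeR over all 15606 genes, passed the threshold for 3 of the 9 genes, where 2.29% of all genes were lower. In S62A lymphomas against T58A lymphomas the log2 fold change was −1.01 for Notch1, −1.61 for Notch3 and −4.31 for Dtx1. All 3 were lower in every S62A library than in every T58A library. None of the 3 passed without T58A lymphoma 2 or when only these groups were fitted, where 6 of the 9 genes had an unadjusted p under 0.05 in each case.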

How the results depend on the processing

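No paired analysis was possible because the labels give the groups no shared replicate numbers. With single libraries left out, the number of the 9 genes called ran from 3 to 6 in T58A lymphomas, 7 to 8 in S62A lymphomas and 4 to 5 in splenomegaly masses against controls, from 0 to 4 between S62A and T58A lymphomas, and from 5 to 7 between splenomegaly masses and S62A lymphomas. Counts over all genes ran from 3914 to 5099, 5157 to 6543, 6045 to 6675, 149 to 814 and 7243 to 8180 in the same order. The count between the lymphomas moved by over 1.5 times without T58A lymphoma 1, T58A lymphoma 2 or S62A lymphoma 2. Within title letter H, where fewer libraries were fitted, T58A lymphomas against controls gave 2 of the 9 genes and 1356 of all genes.

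Between S62A and T58A lymphomas the 9 genes gave 6 calls in the DESeq2 Wald test (Hes1, Hey1 and Heyl in addition; 1754 over all genes) and 0 when only these groups were fitted in edgeR (0 over all genes, with 6 of the 9 and 2194 of all genes at an unadjusted p under 0.05). They gave 0 with limma on log2(FPKM + 1) (337 over all genes) and 0 with limma on all genes with a read (173 over all genes). In each of these limma fits 6 of the 9 had an unadjusted p under 0.05, beside 3226 and 3515 of all genes in that order. The causes were not tested. Of all genes in this comparison 134 were higher and 358 lower, and with library size only 86 were higher and 456 lower. That scaling gave a median of all genes of −0.19 in splenomegaly masses against controls, where TMM gave −0.08.

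No value whose sign changed had passed the test, and the causes were not tested. With single libraries left out, Nrarp ran from −0.58 (without S62A lymphoma 3) to 1.38 in S62A lymphomas against controls and from −0.18 (without the same) to 2.03 against T58A lymphomas. It stood at 0.09 in T58A lymphomas against control 3 alone. Hes5 ran from −0.49 to 0.09 (without splenomegaly mass 1) in splenomegaly masses against controls and from −4.38 to 1.99 (without T58A lymphoma 2) in S62A against T58A lymphomas. Notch2 ran from −0.38 to 0.13 in S62A against T58A lymphomas, with 0.06 without T58A lymphoma 1 and 0.04 without S62A lymphoma 2. Heyl ran from −0.07 (without splenomegaly mass 1) to 0.86 in splenomegaly masses against S62A lymphomas. Dll3 ran from −0.13 to 0.36 in T58A lymphomas and from −0.53 to 1.3 in S62A lymphomas against controls, and from −0.60 to 1.23 between the lymphomas; with limma on log2(FPKM + 0.1) the S62A values were −0.05 and −0.11. In splenomegaly masses against controls Dll4 ran from −0.06 to 0.22 and Jag1 from −0.09 to 0.48, and Jag1 stood at −0.02 with limma on log2(FPKM + 0.1) and −0.00067 with limma on log2(FPKM + 1), with or without the filter. Over the 9 genes, 614 values under the alternatives kept direction and side of the threshold, 47 fell below it, 14 passed it and 9 changed sign. Hes5, with at most 38 reads in a library, is limited most by depth.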
